A study of Mus musculus with 6 samples.

Results

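The tenascins and thrombospondins are large glycoproteins of the extracellular matrix, and they were followed here through 8 genes: Tnc, Tnn and Tnxb of the tenascins and Thbs1, Thbs2, Thbs3, Thbs4 and Comp of the thrombospondins. Members were the probe sets of the array whose platform annotation names exactly 1 gene, that gene being on this list. The rule found 12 probe sets among 45037 non-control probe sets and 8 genes among 18193 named genes. Thbs2 had 3 probe sets, Tnc and Thbs1 had 2 each, and the other 5 genes had 1 each. A further probe set that the annotation assigns to Thbs1 together with a second gene was left out by the rule. No filter on low signal was applied, so all 12 probe sets were tested.

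The study set bone marrow cells with Ebf2, a transcription factor of mesenchymal progenitors, against cells without it, on 6 Affymetrix MOE430_2 arrays, 3 a group. All cells came from adult, untreated C57BL/6 mice of wild-type genotype and shared a gate of CD45- TER119- CD31-. The gate is meant to remove leukocytes, red cells with those precursors that bear TER119, and endothelium. RNA from 1000 or 2000 cells a sample was amplified before hybridisation. The sources used here do not say which samples had which cell number, by what means Ebf2 was detected, or how many animals were used. All signals below are log2 of the deposited RMA values, and each difference is Ebf2-positive minus Ebf2-negative with n = 3 arrays a group. Replicates are not stated to be separate animals, so the p-values reflect spread between these samples alone, and that spread may be technical.

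Tenascins assemble into multi-armed oligomers from chains with EGF-like repeats, fibronectin type III repeats and a fibrinogen-like globe. Tenascin-C appears in developing and wounded tissue, tenascin-N (tenascin-W) in bone and tumour stroma, and tenascin-X in skin, tendon and vessel walls, where it associates with collagen fibrils. Thrombospondins bind calcium and fall into a trimeric group, Thbs1 and Thbs2, which carries type 1 repeats that bind CD36, and a pentameric group, Thbs3, Thbs4 and Comp, which lacks them and is known from cartilage, tendon and muscle. As matricellular proteins they tune how cells hold on to matrix, through integrins, CD47, syndecans and LRP1. Thbs1 is also stored in platelets and can activate latent TGF-beta.

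The arrays and the sort were checked on markers first. Ebf2 read 8.13, 8.80 and 8.04 in the positive sort and 3.10, 4.02 and 3.84 in the negative sort. Pecam1, the gene of CD31, lay between 2.48 and 4.15 on all 6 arrays. Ptprc, the gene of CD45, ran from 3.59 to 6.76 in Ebf2-positive and from 7.98 to 8.78 in Ebf2-negative cells (difference -2.65, limma adjusted p = 0.0698). All 13 measured erythroid markers were lower in Ebf2-positive cells, and their mean signal ran from 4.83 to 5.35 there against 9.42 to 9.60 in Ebf2-negative cells. All 14 measured fibroblast markers were higher, with means of 9.74 to 10.22 against 5.22 to 6.21, and 12 of 14 pericyte and smooth muscle markers were higher. Of 12 leukocyte markers 6 were lower (3 without Ebf2-negative replicate 3), and of 14 endothelial markers 3 were higher. Of 12 reticular and osteoblast markers 2 were higher and 1 lower, counts that ran from 0 to 2 on leaving out single arrays (0 of either without Ebf2-negative replicate 1). Of 8 Schwann cell markers 3 were higher and 1 lower, and the lower call was lost on leaving out any Ebf2-negative array. Over all genes 10.8% were called higher and 13.6% lower, so the reticular and osteoblast counts are near the share of all genes. The Ebf2-negative group is described here only as the rest of the gate. In bulk samples fewer cells of a type and less RNA per cell cannot be told apart. RNA controls with poly-A tails were brighter on the Ebf2-positive arrays (12.31 ± 0.21, SD, n = 3, against 9.82 ± 0.99), and centring the arrays on them shifted every difference by -2.49, a scaling called poly-A centring below. Each difference therefore says how a gene moved against the rest of its array. Under poly-A centring the SE was 0.74 for every member gene alike. Its p-values thus do not measure the spread of the single gene.

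Of the 12 probe sets, 7 were higher in Ebf2-positive cells, 0 were lower and 5 did not pass (limma with Benjamini-Hochberg adjustment over all probe sets, threshold 0.05), where 6.39% of all probe sets were called higher and 8.76% lower. On 9 of the 12 the Ebf2-positive arrays all lay above the Ebf2-negative ones, as on 19.1% of all probe sets. Over genes, each represented by its brightest probe set, 6 of the 8 members were higher, 0 were lower and 2 did not pass, against 10.8% of all genes called higher and 13.6% lower. At an unadjusted p under 0.05 the members' counts were also 6 and 0, beside 2951 and 3593 of all 18193 genes. All 5 thrombospondins were called higher, and of the 3 tenascins only Tnxb was. The call of Thbs1 was lost on leaving out single arrays, and the calls of the other 5 were kept on leaving out each array in turn. The median difference of the 8 members was 3.78, against 0.07 over all genes. With poly-A centring 3 members were higher (Tnxb, Thbs3 and Thbs4), 2 were lower (Tnc and Tnn) and 3 were not called. Over all 18193 genes that scaling called 227 higher and 15663 lower. Most genes were thus called lower under it, and each poly-A call or count below stands beside that share.

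**Figure D1:**
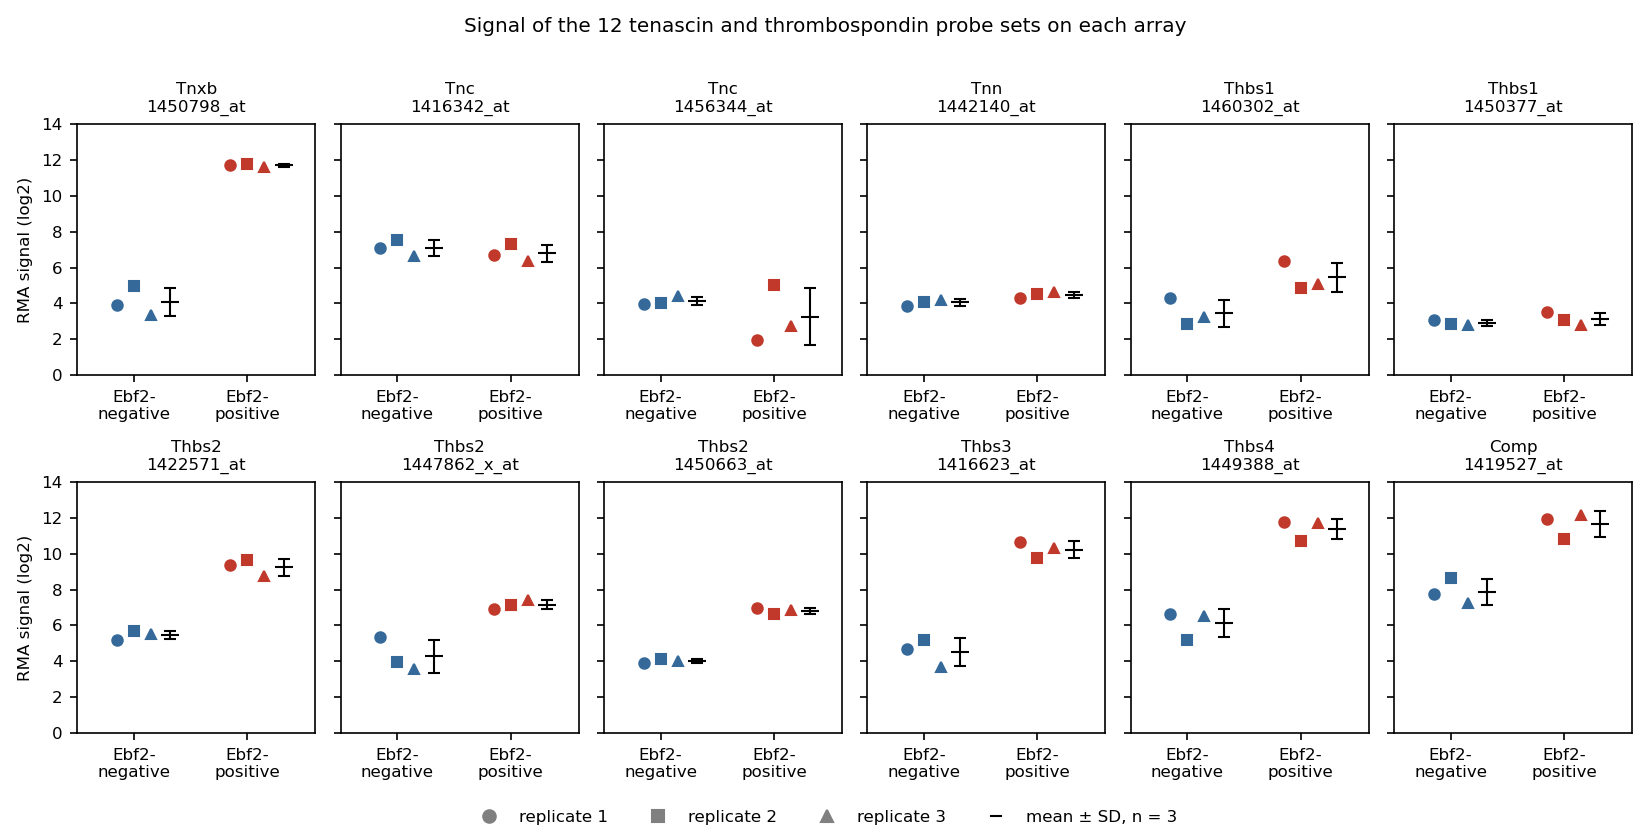
Signal (log2 of the RMA value, vertical axis) of the 12 member probe sets on each Ebf2-negative (blue) and Ebf2-positive (red) array, where a symbol marks the replicate number and a bar the mean ± SD of 3 arrays. Tnxb, Thbs3, Thbs4, Comp and the 3 Thbs2 probe sets form separate groups with wide gaps, while those of Tnc and Thbs1 1450377_at overlap.

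Promoter windows show the sequence that lies before the start of members that were higher together. The RefSeq table (GRCm38.p6) holds windows for 6 of the 8 members, with Thbs1 and Comp not among them. The 4 below belong to members called higher and give the 250 bases before the annotated start, 5′ to 3′ on the gene's own strand, in lower case with matches to the searched motifs in capitals.

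Tnxb, chr17:34670285-34670534, plus strand: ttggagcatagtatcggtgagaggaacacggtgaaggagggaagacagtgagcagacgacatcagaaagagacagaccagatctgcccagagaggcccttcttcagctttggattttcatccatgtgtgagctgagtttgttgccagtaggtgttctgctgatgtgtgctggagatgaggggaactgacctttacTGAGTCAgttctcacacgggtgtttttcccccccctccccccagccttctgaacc

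Thbs2, chr17:14694263-14694512, minus strand: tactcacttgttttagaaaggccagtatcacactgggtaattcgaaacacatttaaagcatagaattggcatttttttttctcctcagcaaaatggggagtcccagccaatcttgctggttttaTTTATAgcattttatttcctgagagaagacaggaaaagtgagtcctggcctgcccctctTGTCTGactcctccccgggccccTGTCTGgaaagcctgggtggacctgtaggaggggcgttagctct

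Thbs3, chr3:89214930-89215179, plus strand: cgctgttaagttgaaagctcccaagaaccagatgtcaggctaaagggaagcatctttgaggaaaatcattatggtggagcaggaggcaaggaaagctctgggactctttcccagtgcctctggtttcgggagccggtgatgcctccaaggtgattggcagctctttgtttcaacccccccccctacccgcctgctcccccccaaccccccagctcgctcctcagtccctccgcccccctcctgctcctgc

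Thbs4, chr13:92794819-92795068, minus strand: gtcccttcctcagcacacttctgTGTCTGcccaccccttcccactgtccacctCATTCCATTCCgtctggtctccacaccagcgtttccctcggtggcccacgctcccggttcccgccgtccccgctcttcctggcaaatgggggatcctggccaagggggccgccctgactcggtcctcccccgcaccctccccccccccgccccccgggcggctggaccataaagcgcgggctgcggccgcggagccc

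Both strands of each 300-base window (the 250 bases and the first 50 of the transcript) were searched for 6 motifs. The palindromic EBF motif was found in 0 of the 7 windows of the 6 members (Tnc has 2), and it occurs in 0.904% of the 32851 windows of the table. The AP-1 motif TGANTCA was found in 1 member, Tnxb, where TGAGTCA begins 55 bases before the start, and occurs in 7.81% of all windows. The TEAD motif GGAATG was found in Tnn and in Thbs4, there as 2 matches of CATTCC that share 1 base, and occurs in 14.7% of all windows. The SMAD motif CAGACA was found in Thbs2, Thbs4 and Tnc, in 4 of the 7 windows, and occurs in 21% of all windows. The 2 windows of Tnc overlap, so they are not separate counts. A SMAD site 71 bases before 1 Tnc start is the site at base 9 of the other transcript. The TATAAA motif was found in Thbs2 and Tnc, in 3 of the 7 windows, and occurs in 13.6% of all windows. The match of Thbs2 is on the opposite strand and begins 126 bases before the start. Those of Tnc begin 126 and 205 bases before its 2 starts and are 1 site, seen in both overlapping windows. The CArG box of SRF was found in 0 of the 7 windows and occurs in 1.63% of all windows. The Thbs3 window holds none of the 6. The Tnxb window lies inside the span that RefSeq gives for the gene, at an internal start. The Thbs4 window is rich in G and C (70.8%) and that of Thbs2 is not (46.8%), beside a median of 52.4% over all windows.

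Tnxb encodes tenascin-X, a fibril-associated matrix protein whose loss in people causes a form of Ehlers-Danlos syndrome with lax joints and skin. Its signal was 11.72, 11.77 and 11.62 in Ebf2-positive and 3.92, 4.95 and 3.36 in Ebf2-negative cells. The groups were far apart, and the Ebf2-positive arrays lay close together (11.70 ± 0.08, SD, n = 3, against 4.08 ± 0.81). The difference of 7.62 (SE 0.40, 197-fold, adjusted p = 0.000302 over genes) had a 95% interval from 6.65 to 8.59 and was the third in size among the positive differences of all 18193 genes. On the Ebf2-positive arrays the probe set ranked above 99.5% of all probe sets, and on the Ebf2-negative arrays between the 44.0 and 65.3 percentiles. Under poly-A centring the difference was 5.13 and still passed (adjusted p = 1.60e-10). The SE there was 0.74, the same as for every other member, so this p-value does not measure the spread of Tnxb itself.

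Tnc encodes tenascin-C, the tenascin of developing, wounded and inflamed tissue. The probe set standing for the gene (1416342_at) stood at 6.72, 7.32 and 6.35 in Ebf2-positive and at 7.11, 7.53 and 6.63 in Ebf2-negative cells. These ranges overlap, and the difference of -0.29 (SE 0.34, adjusted p = 0.589) had a 95% interval from -1.11 to 0.53, an upper bound below the difference of each of the 5 thrombospondins. The second Tnc probe set (1456344_at) read 1.97, 5.05 and 2.74 in Ebf2-positive and 3.98, 4.0 and 4.39 in Ebf2-negative cells. Ebf2-positive replicate 2 was the highest of all 6 arrays on it and the other 2 Ebf2-positive arrays were the lowest. The difference of -0.87 did not pass (adjusted p = 0.511 over probe sets), and without Ebf2-positive replicate 2 it was -1.77 and passed (adjusted p = 0.0205). Poly-A centring made the difference of 1416342_at -2.78, which passed (adjusted p = 0.000551).

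Tnn encodes tenascin-N, also called tenascin-W, a tenascin of osteoblast precursors and of tumour stroma. It read 4.30, 4.51 and 4.65 in Ebf2-positive and 3.87, 4.08 and 4.21 in Ebf2-negative cells. The Ebf2-positive arrays were all higher but by less than 1 on the log2 scale, and the difference of 0.44 (SE 0.20, 95% interval from -0.04 to 0.91) did not pass (adjusted p = 0.172). It turned to -2.06 with poly-A centring (adjusted p = 0.00753). Tnr, the tenascin of the nervous system and no member here, lay between 1.66 and 1.79 on all 6 arrays, among the dimmest signals.

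Thbs2, a trimeric thrombospondin of fibroblasts that inhibits vessel growth and clears the gelatinase Mmp2 through the receptor Lrp1, rose on all 3 of its probe sets. The one standing for the gene (1422571_at) stood at 9.36, 9.66 and 8.74 in Ebf2-positive and at 5.19, 5.68 and 5.53 in Ebf2-negative cells. The lowest Ebf2-positive array was more than 3 above the highest Ebf2-negative array. The difference was 3.78 (SE 0.29, 13.8-fold, adjusted p = 0.000601 over genes). The other 2 probe sets differed by 2.89 (1447862_x_at, adjusted p = 0.0109 over probe sets) and 2.78 (1450663_at, adjusted p = 0.000757 over probe sets), so all 3 gave the same direction. With poly-A centring they differed by 1.29, 0.39 and 0.29, and none of the 3 passed.

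Thbs1, the trimeric thrombospondin of platelets, macrophages and stressed stroma, gave a weaker and less certain difference. Its probe set 1460302_at read 6.39, 4.85 and 5.11 in Ebf2-positive and 4.30, 2.83 and 3.22 in Ebf2-negative cells. The groups did not overlap, but the gap between the lowest Ebf2-positive and the highest Ebf2-negative array was small beside the spread within each group. The difference of 2.0 (SE 0.54, 3.99-fold, 95% interval from 0.71 to 3.28) passed over genes (adjusted p = 0.0385) and not over probe sets (adjusted p = 0.0580). It lost its call over genes without Ebf2-positive replicate 1 (adjusted p = 0.0760) or replicate 3 (0.0604) and without Ebf2-negative replicate 2 (0.116) or replicate 3 (0.125). The second probe set (1450377_at) overlapped between groups, from 2.81 to 3.50 and from 2.81 to 3.08, and differed by 0.22 (adjusted p = 0.583 over probe sets). The mean of both probe sets differed by 1.11 (adjusted p = 0.0647), and poly-A centring turned the difference of 1460302_at to -0.50 (adjusted p = 0.522).

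Megakaryocytes, platelets and macrophages are known sources of Thbs1. Of 14 measured megakaryocyte and platelet markers, 0 were higher in Ebf2-positive cells (limma, 0 also at an unadjusted p under 0.05) and 6 were lower, among them Nfe2, a transcription factor of erythroid cells and megakaryocytes (-4.14), and Pf4, a chemokine of platelet granules (-3.10). Their mean signal ran from 4.20 to 4.62 in Ebf2-positive and from 5.21 to 5.93 in Ebf2-negative cells. Of 15 macrophage and monocyte markers, 0 were higher and 2 were lower, Mrc1, a mannose receptor (-2.62), and Cd163, a haemoglobin scavenger receptor (-0.80), whose call was lost on leaving out any single array except Ebf2-positive replicate 2. Their mean ran from 4.06 to 5.43 and from 4.85 to 5.25, and their median difference was -0.14. Over all genes 10.8% were called higher and 13.6% lower, so the macrophage count is near the share of all genes. The part of either cell type in the values of Thbs1 was not tested.

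All 3 pentameric thrombospondins were called higher. Thbs3, the least studied of them, which is expressed in bone and cartilage, read 10.67, 9.74 and 10.30 in Ebf2-positive and 4.70, 5.16 and 3.67 in Ebf2-negative cells. The lowest Ebf2-positive array was more than 4 above the highest Ebf2-negative array, and the difference of 5.72 (SE 0.44, 52.9-fold) passed (adjusted p = 0.000571). Thbs4, known from tendon, muscle and vessel walls, read 11.75, 10.73 and 11.69 in Ebf2-positive and 6.61, 5.21 and 6.55 in Ebf2-negative cells. Replicate 2 was the lowest array of both groups on it, and the difference was 5.26 (SE 0.47, 38.4-fold, adjusted p = 0.000911). Under poly-A centring Thbs3 differed by 3.23 and Thbs4 by 2.77, and both still passed.

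Comp, cartilage oligomeric matrix protein, binds collagens and matrilins in cartilage, tendon and ligament. It read 11.96, 10.81 and 12.17 in Ebf2-positive and 7.73, 8.63 and 7.23 in Ebf2-negative cells. Ebf2-positive replicate 2 was again the lowest array of its group, and Ebf2-negative replicate 2 was the highest of its own. These 2 arrays bound the gap between groups and were not taken as a pair. The difference was 3.78 (SE 0.49, 13.8-fold, 95% interval from 2.60 to 4.97, adjusted p = 0.00311). On the Ebf2-negative arrays Comp lay between the 84.9 and 93.3 percentiles of all probe sets. With poly-A centring the difference was 1.29 and did not pass (adjusted p = 0.0922).

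**Figure D2:**
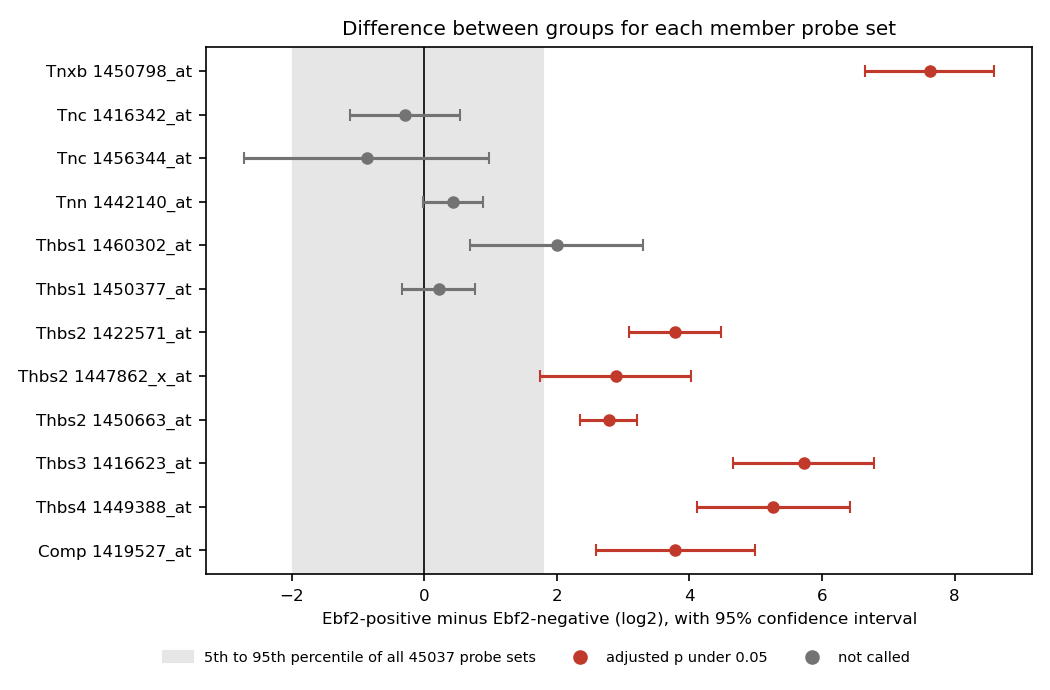
Difference between groups (Ebf2-positive minus Ebf2-negative, log2, horizontal axis) with its 95% confidence interval for each member probe set, in red where the adjusted p over probe sets was under 0.05. The grey band spans the 5th to the 95th percentile of the differences of all 45037 probe sets, from -1.99 to 1.80. The points of the 7 called probe sets and, in grey, of Thbs1 1460302_at lie to the right of the band, and those of Tnc, Tnn and Thbs1 1450377_at lie within it.

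Among the members, 7 of 8 genes had Ebf2-positive arrays that were all above the Ebf2-negative arrays, a pattern shown by 21.8% of all genes, and Tnc was the exception. The order of the differences was Tnxb, Thbs3, Thbs4, Comp, Thbs2, Thbs1, Tnn and Tnc. The 95% intervals of neighbours in this order overlapped, including those of Tnxb (6.65 to 8.59) and Thbs3 (4.67 to 6.78), and the differences between members were not tested. Comp and Thbs2 had nearly the same difference, and their profiles over the 6 arrays, each centred on its own mean, were a root mean square distance of 0.76 apart. Thbs3 and Thbs4 were 0.87 apart. Tnc and Tnn were 0.58 apart, with differences of -0.29 and 0.44. This distance is small where both genes differ little between groups, so it does not make their patterns alike.

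**Figure D3:**
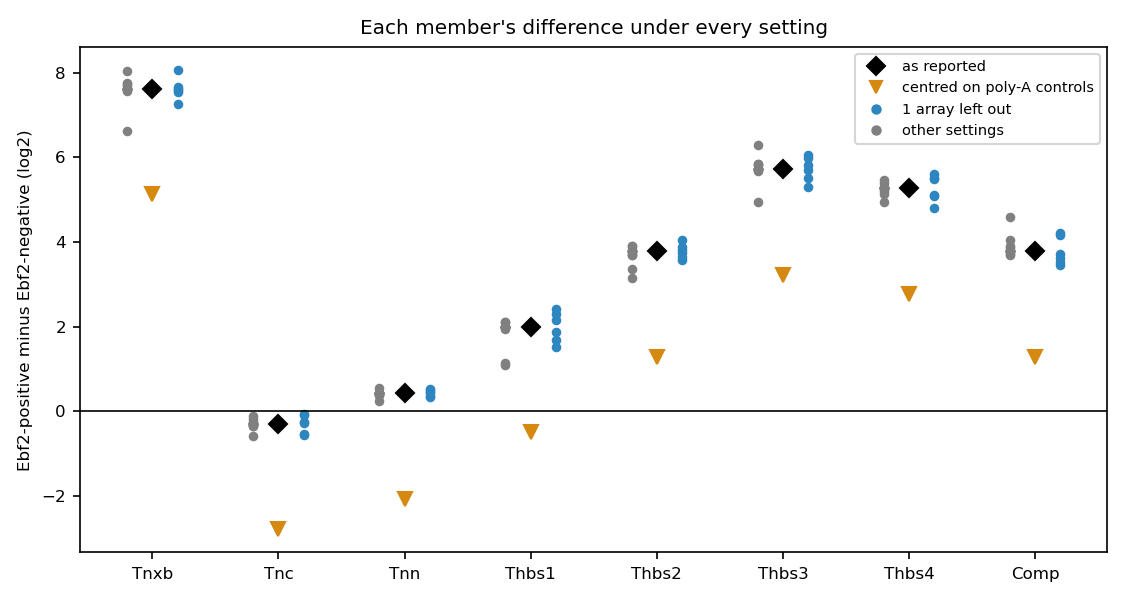
Difference of each member gene (Ebf2-positive minus Ebf2-negative, log2, vertical axis) as reported (diamond), with 1 array left out (blue), under other settings (grey) and with poly-A centring (triangle). Tnxb, Thbs3, Thbs4, Comp and Thbs2 stay above 0 throughout, while Thbs1 and Tnn fall below 0 with poly-A centring.

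Within the Ebf2-positive group, replicate 2 differed from the others in some members. Comp was 1.26 lower there than the mean of replicates 1 and 3, Thbs4 0.99 lower, Thbs1 0.90 lower and Thbs3 0.74 lower. Tnxb and Tnn differed by 0.10 and 0.03, while Thbs2 and Tnc were 0.62 and 0.78 higher. Over all genes the median of this difference was 0.00, and 7.40% of genes were more than 1 lower on replicate 2. Of 19 measured tendon, ligament and cartilage genes, 11 were more than 1 lower on replicate 2, with a median of -1.05. Erythroid markers had a median of -0.61 there, with 6 of 13 more than 1 lower, while the medians of endothelial and macrophage markers were 0.95 and 0.76. The ratio of 3' to 5' actin signal, used as a measure of RNA quality, was 14.01 on Ebf2-positive replicate 2. It was 31.4 and 27.3 on replicates 1 and 3, and 15.9 to 24.2 on the Ebf2-negative arrays. The 3' signal was thus far brighter than the 5' signal on every array. The ratio was read on amplified RNA, and the part of amplification in it was not tested. Col2a1, the main collagen of cartilage, read 11.37, 5.95 and 11.57 in Ebf2-positive and 7.18, 8.66 and 7.39 in Ebf2-negative cells. Comp on Ebf2-positive replicate 2 was still above all Ebf2-negative arrays, whereas Col2a1 there was below all of them. Without Ebf2-positive replicate 2 the difference of Comp was 4.20, that of Thbs4 5.59 and that of Thbs3 5.97. The mean of the whole tendon and cartilage list was 7.64, 5.74 and 7.87 in Ebf2-positive cells against 4.67 to 5.01 on the Ebf2-negative arrays. The part of other cells or of RNA quality in the values of Comp, Thbs3, Thbs4 and Thbs1 on this array was not tested.

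**Figure D4:**
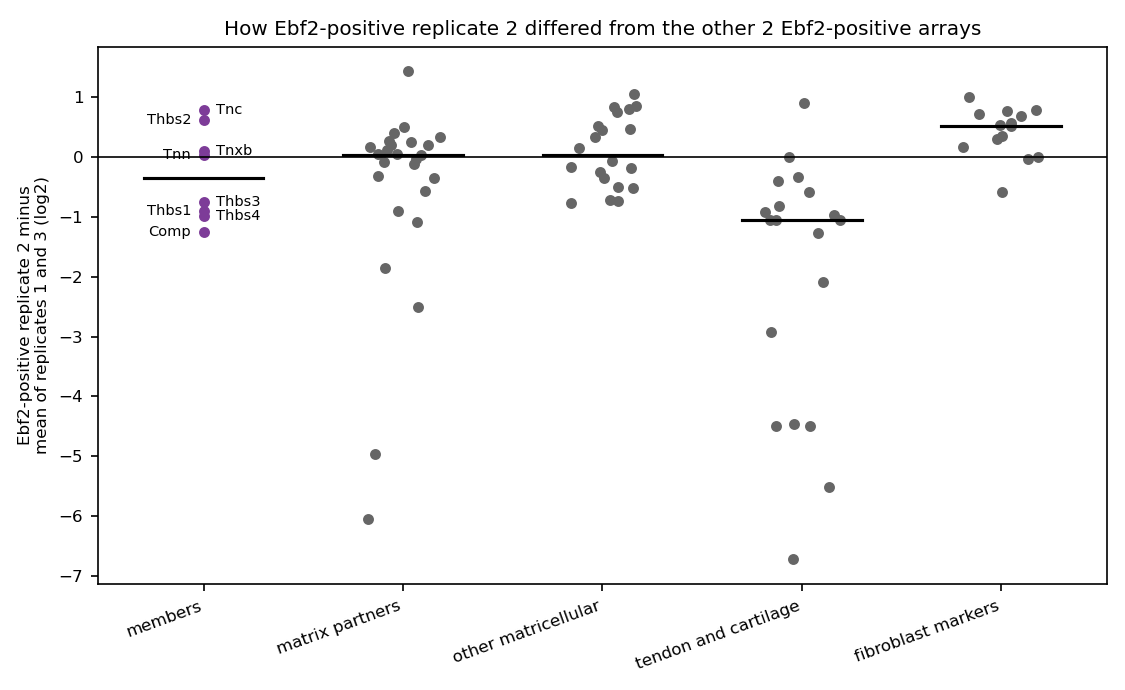
Signal of Ebf2-positive replicate 2 minus the mean of Ebf2-positive replicates 1 and 3 (log2, vertical axis), with 1 point a gene and a line at the median, for the 8 members and for 4 related lists. Comp, Thbs4, Thbs1 and Thbs3 lie below 0 with most tendon and cartilage genes, while Thbs2, Tnc and most fibroblast markers lie above it.

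The tendon, ligament and cartilage list held 7 genes that rose and 0 that fell (8 and 0 at an unadjusted p under 0.05), with 12 not called and a median of 1.37 (-1.12 under poly-A centring, where 4 were higher and 6 lower). The largest were Prg4, the joint lubricant (6.09), Cilp, an intermediate-layer cartilage protein (5.96), Fmod, a small leucine-rich proteoglycan of tendon (4.54), and Kera, its relative of cornea and tendon (4.33). Col2a1 differed by 1.89 and did not pass (adjusted p = 0.421). Without Ebf2-positive replicate 2 the list held 14 genes called higher and its median was 3.48.

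Receptors of these proteins were mostly called higher or not called. Of 27 measured receptor genes, 11 were higher, 2 lower and 14 not called, where 10.8% of all genes were higher and 13.6% lower. The 2 lower calls are a smaller share than that of all genes. The median difference was 1.07 (-1.43 under poly-A centring). That scaling left 2 receptors higher and 13 lower, beside 227 and 15663 of all 18193 genes. Lrp1, the scavenger receptor that takes up thrombospondin complexes, read 10.66, 10.98 and 10.93 in Ebf2-positive and 6.11, 6.47 and 5.38 in Ebf2-negative cells. It was higher on all Ebf2-positive arrays, by 4.87 (SE 0.31, 29.2-fold, adjusted p = 0.000384). Itga7, a laminin-binding integrin chain of muscle and mural cells, was higher by 4.09 and Anxa2, a cell-surface binder of tenascin-C, by 3.71. Both lower receptors are of blood cells as well as stroma: Itga4, the chain of the integrin VLA-4 (-4.42), and Cd47, the receptor of the thrombospondin C-terminus (-1.58), which is abundant on red cells and was chosen after its value was seen. Cd47 read 9.71, 9.51 and 9.20 in Ebf2-positive and 11.09, 11.26 and 10.82 in Ebf2-negative cells. Erythroid markers, given above, were also brighter on the Ebf2-negative arrays, and their part in the difference of Cd47 was not tested.

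Of 25 measured matrix partners, 15 were higher and 0 lower (17 and 0 at an unadjusted p under 0.05), with 10 not called and a median of 2.85 (0.36 under poly-A centring), where 9 were higher and 6 lower. Col14a1, a fibril-associated collagen and a known partner of tenascin-X, read 10.36, 10.49 and 10.69 in Ebf2-positive and 2.34, 2.91 and 3.94 in Ebf2-negative cells. It was as clearly separated as Tnxb, with a difference of 7.45 (SE 0.41, adjusted p = 0.000320). Fn1, fibronectin, to which tenascin-C and thrombospondins bind, differed by 5.87, Fbln2, a fibulin, by 5.45, and Dcn, the proteoglycan decorin, by 5.43. The cartilage genes Col9a1 (1.42), Acan (1.06) and Matn3 (1.34) did not pass, and were chosen after their values were seen. Each was lower on Ebf2-positive replicate 2 than on the other 5 arrays, and their SDs over the Ebf2-positive arrays were 3.50, 2.88 and 1.47.

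Most of the proteases and regulators that act on or through these proteins were called higher. Of 23 measured, 13 were higher, 1 lower and 9 not called, with a median of 2.68 (0.19 under poly-A centring), where 7 were higher and 6 lower. Adamts12, a metalloproteinase that cleaves Comp, read 8.73, 9.64 and 10.06 in Ebf2-positive and 2.97, 3.66 and 3.94 in Ebf2-negative cells. The groups were well apart, with a difference of 5.95 (SE 0.42, 61.9-fold, adjusted p = 0.000459). Mmp2, the gelatinase that Thbs2 helps to clear, was higher by 5.27, Timp3 by 4.85 and Timp2 by 4.75, both inhibitors of metalloproteinases. The gene that fell was Mmp9, a gelatinase of neutrophils and osteoclasts (-1.51, adjusted p = 0.0444), whose call was lost without Ebf2-positive replicate 1 (adjusted p = 0.107) or replicate 2 (0.102) and without Ebf2-negative replicate 2 (0.119) or replicate 3 (0.123). Mmp9 was named after its value was seen.

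Among other matricellular proteins, 12 of 20 measured were higher and 0 lower (15 and 0 at an unadjusted p under 0.05), with 8 not called and a median of 2.36 (-0.13 under poly-A centring, where 4 were higher and 5 lower). The largest were Ccn3 (8.33), Smoc2, a calcium-binding modular protein (6.17), Tgfbi, a fasciclin-domain protein (5.57), and Sparcl1, a relative of osteonectin (4.09). Of 25 other genes whose proteins carry thrombospondin type 1 repeats, 9 were higher and 0 lower (14 and 0 at an unadjusted p under 0.05), with 16 not called and a median of 1.01 (-1.49 under poly-A centring, where 3 were higher and 11 lower). The 4 largest were all ADAMTS-like proteins, secreted relatives of the ADAMTS proteases without protease activity: Adamtsl4 (4.67), Adamtsl1 (4.44), Adamtsl3 (4.43) and Adamtsl5 (3.45).

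**Figure D5:**
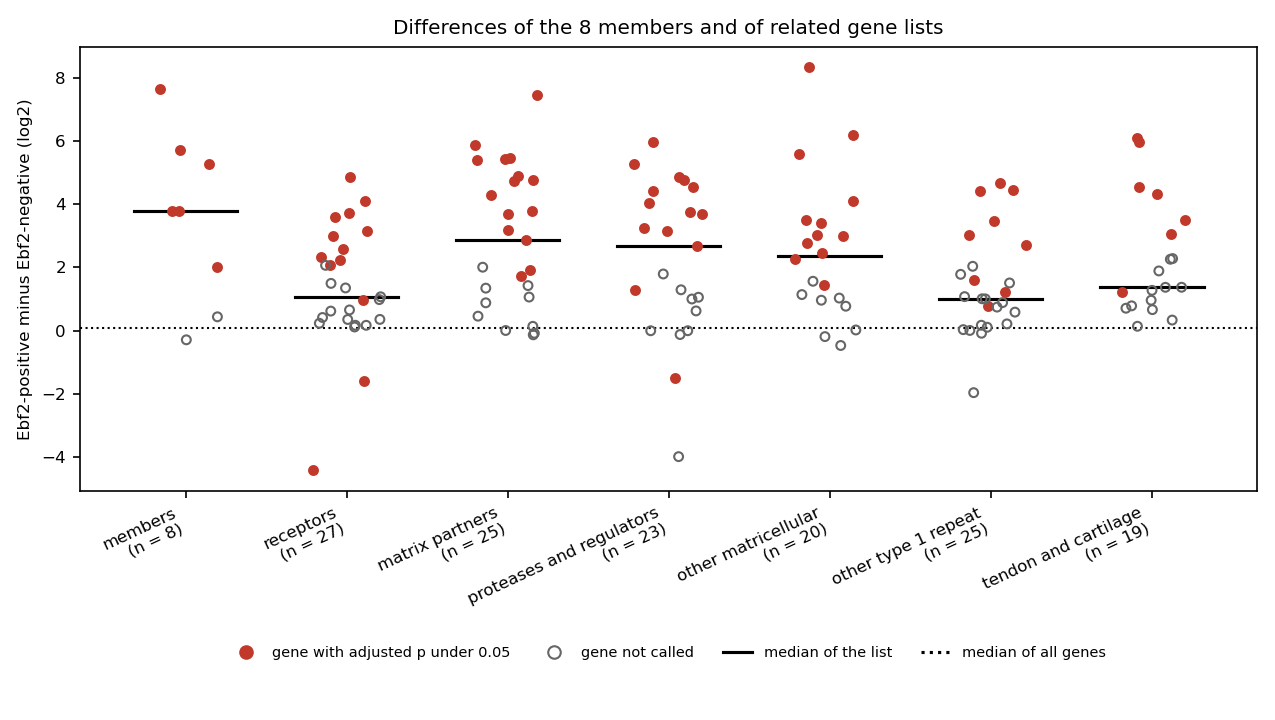
Difference between groups (log2, vertical axis) of each gene, in red where its adjusted p over genes was under 0.05, for the 8 members and for 6 related lists, with a line at each median and a dotted line at the median of all genes (0.07). The members' median of 3.78 lies beside 2.85 for matrix partners and 1.07 for receptors.

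The genes nearest to a member in pattern were found by the root mean square distance between log2 profiles over the 6 arrays, each centred on its own mean. Tnxb was nearest to Ccn3 (0.39), Acta2, smooth muscle actin (0.49, with a difference of 7.01 that fell to 0.34 on another of its probe sets), and Aoc3, an amine oxidase (0.53). Thbs3 was nearest to Tgfbi (0.28), Adgrg2, an adhesion receptor (0.33), and Ret, a receptor kinase (0.37). Thbs4 was nearest to Ndrg4 (0.35), Fmod (0.42) and Gfpt2, an enzyme of hexosamine synthesis (0.51). Fmod shares with Thbs4 the lower signal on replicate 2 of both groups. Comp was nearest to Fgfr1, a fibroblast growth factor receptor (0.19), Sash1 (0.23) and Zfp521, a zinc finger partner of EBF factors (0.27). Thbs2 was nearest to Srpk3 (0.23), Tmem182 (0.24) and Duoxa1 (0.25), and Thbs1 to Ubtd2 (0.28), Tmem158 (0.29) and Car5b (0.32). Tnc was nearest to Fgfr2 (0.10), Mlkl (0.11) and Mfsd4b1 (0.15), and Tnn to Fam24b (0.04), Mlph (0.05) and Aloxe3 (0.05), all near-flat profiles. These are descriptions over 6 arrays of 2 groups, and by Pearson correlation the nearest genes were others, except that Fmod and Ndrg4 stayed among the first 3 of Thbs4.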

How the data were processed

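RNA of sorted bone marrow cells was hybridised to 6 Affymetrix MOE430_2 arrays, and the authors deposited RMA values, which are linear intensity values, per the submitters' processing notes and the series' design text. No source used here gives the version of RMA. The intensity values were turned to log2 with no offset and no filter, and arrays were grouped by the sorted population in their labels. RMA makes the distributions of arrays alike, so each difference is set against the rest of the array.

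Of 45101 probe sets, 64 controls were left out of the tests, and of the others 34945 named 1 gene, 932 several and 9160 none in the platform annotation. For each gene, the probe set of highest mean signal on the 6 arrays stood for it. The tests used limma 3.58.1 under R 4.3.3 (two-sided, Benjamini-Hochberg over all features, threshold 0.05), fitted over 45037 probe sets and over 18193 genes, and the code was tested on simulated data. The number of arrays, 3 a group, limits the precision.

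The members and gene lists were chosen with earlier results of these data known. Named genes were all members, Ebf2, Ptprc and Pecam1, up to 4 called genes of each list by size of difference, and the 3 genes nearest in pattern to each member. Other genes are said to be chosen after their values were seen. Alternatives covered scaling, an offset, a filter on dim probe sets, variance models, a minimum difference, probe set choice, the replicate number as a block, and leaving out arrays. The deviations of same-numbered arrays correlated at 0.05, 0.11 and 0.03, so the numbers were not taken as pairs. Promoter windows came from RefSeq (GRCm38.p6), and figures were drawn with matplotlib 3.10.9.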

Additional observations from a re-analysis of the deposited data

How the results depend on the processing

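Tnxb, Thbs3 and Thbs4 were called higher among genes under every alternative run. Thbs2 and Comp were called under all except poly-A centring, and Thbs1 kept its call in 11 of the 20. Poly-A centring left 3 member probe sets and 3 member genes higher, with 4 probe sets and 2 genes lower, and 29 related genes higher with 47 lower. It called 15890 genes and 40853 probe sets in all, moved the share of called genes that were higher from 44.3% to 1.43%, and turned Tnn to -2.06, Thbs1 to -0.50 and Thbs1 1450377_at to -2.28. The turned signs follow from its shift of every difference by -2.49. The calls depend also on its SE, which was 0.74 for every member gene and 0.73 for every member probe set. A minimum difference of 1 (limma's treat) called 1433 genes and 1804 probe sets, and 1 related gene lower. Without both arrays numbered 2, 4147 probe sets were called, and the cause was not tested. Leaving out 1 array gave 7 member probe sets higher and 0 to 1 lower, 5 to 6 member genes higher and 0 lower, 58 to 78 related genes higher and 2 to 3 lower, 2690 to 4348 genes (4430 with all arrays) and 3526 to 6697 probe sets (6822 with all). The fewest calls over all genes and over all probe sets came without Ebf2-negative replicate 3. Leaving out replicate 1 of that group called 4076 probe sets. With the replicate number as a block, 6 member genes and 8 member probe sets were higher, 70 related genes were higher and 2 lower, and 4219 genes and 5999 probe sets were called. Each array's deviation correlated best with that of its own number, a hint from the data and not the design.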

Other observations

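Genes next to the members in RefSeq order (GRCm38.p6) were set beside them, a choice made after the data were seen. Smoc2, a calcium-binding matricellular protein, lies next to Thbs2 and was higher in Ebf2-positive cells by 6.17 (limma adjusted p = 0.000359), while Wdr27 on the other side differed by 0.23 (adjusted p = 0.598). Mtx1, a mitochondrial import protein next to Thbs3, differed by -0.59 (adjusted p = 0.158) and Muc1, a mucin on its other side, by 0.34 (adjusted p = 0.472). Atf6b, a stress-response transcription factor next to Tnxb, differed by -0.35 (adjusted p = 0.575). The neighbours of Comp, Upf1 (0.43) and Crtc1 (-0.14), and of Thbs4, Serinc5 (-1.43) and Mtx3 (-1.07), did not pass. Both neighbours of Tnn passed, in opposite directions: Mrps14, a mitochondrial ribosomal protein, with -1.32 (limma adjusted p = 0.0289) and 4930523C07Rik with 0.92 (adjusted p = 0.0444). The neighbours of Tnc, Tnfsf8 (0.61) and Pappa (-0.74), and of Thbs1, Rasgrp1 (0.16) and Fsip1 (0.13), did not pass. C4b, next to Tnxb, was not measured. Smoc2, Mrps14 and 4930523C07Rik were thus the only neighbours called, where 10.8% of all genes were called higher and 13.6% lower.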
